A study of Mus musculus with 36 samples.

Results

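The middle of the dark phase was set against the middle of the light phase for the circular RNAs (circRNAs) of the mouse frontal cortex. The comparison took the 3 cortex samples of zeitgeber time (ZT) 17 and the 3 of ZT5, chosen by their labels, which are 6 of the 36 samples of the series and 12 h apart. ZT counts hours from lights on. All mice were wild-type males of the strain C57BL/6 (substrain N in the study's methods) aged 9 to 10 weeks, housed with lights on from 6:00 to 18:00, so that ZT5 fell at 11:00 in the light and ZT17 at 23:00 in the dark, when mice are active. The whole series held hippocampus and frontal cortex at 6 time points with 3 replicates each, and total RNA depleted of ribosomal RNA was sequenced from each sample, each called a biological replicate. The question was which circRNAs of the cortex differ in abundance between rest and activity phases. A sample is a tissue piece of mixed cells, so that fewer cells of a type and less RNA per cell cannot be told apart.

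A circRNA forms when the end of an exon is spliced back to the start of the same or an earlier exon, which leaves a closed ring without a cap or a poly(A) tail. Such rings resist exonucleases, are long-lived, and are abundant in neurons, where many come from genes of the synapse. The sequence across the back-splice junction is found in the ring and not in the linear transcript of the same gene, and reads across it (circular reads) are what was counted. Cdr1as, the most abundant circRNA of the mouse brain, is densely packed with sites for the microRNA miR-7.

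The junctions of the 5 circRNAs with the smallest unadjusted p-values in each direction, among those with known exons, are shown first, because they are the sequences by which these circles were recognised. Each line holds the last 15 bases of the circle's last exon in lower case and then the first 15 bases of its first exon in capitals, from the GENCODE M21 transcripts (GRCm38), 5′ to 3′. The first 5 were lower and the next 5 higher at ZT17, and the last is a second Rims1 circle that starts with the same exon as the other and ends 1 exon later.
Tox exons 2 to 3 of 9 (chr4:6822905-6842426, minus strand): aattccatctctgtgTTTGACGGGGAGAAC
Mfsd6 exon 2 of 7 (chr1:52708164-52709755, minus strand): gattggccatatcagATCACCATTCAGAAT
Dpy19l1 exons 2 to 7 of 23 (chr9:24462577-24485729, minus strand): ttcaatcatggagagCTTCCTTTGCAGCTC
Shank3 exons 19 to 21 of 22 (chr15:89543100-89549882, plus strand): cattgcagcagctcgAGAAGTTGGATGAGA
Grin2a exon 4 of 14 (chr16:9761391-9761983, minus strand): acacactctgcaccaGATCCGACATCCACG
Cacna2d3 exons 21 to 24 of 38 (chr14:29055887-29062540, minus strand): cctcaacaaatctgaTTTAGGTGTGGCGCT
Rims1 exons 30 to 31 of 37 (chr1:22373344-22379540, minus strand): caggggcaggatcagCGAGCTTAGTAGTGG
Agtpbp1 exons 2 to 11 of 26 (chr13:59512324-59544451, minus strand): gcttgccgcctgaagATTATCTGCAATGCT
Dock3 exons 13 to 22 of 53 (chr9:106985994-107006879, minus strand): caggaagccatgcggATGTAACAACGAGAG
Rab10os exons 2 to 4 of 8 (chr12:3237285-3238112, plus strand): caccagcgaaggatgGTGACCTCACTGACC
Rims1 exons 30 to 32 of 37 (chr1:22346293-22379540, minus strand): agctcagccagacagCGAGCTTAGTAGTGG
Of these 11 circles, 8 consist wholly of coding sequence, Mfsd6 and Agtpbp1 begin just upstream of the start codon with 96.8% and 97.1% of their bases coding, and Rab10os comes from a noncoding RNA. Their spliced lengths, taking all annotated exons between the ends as included, run from 280 nt in the shorter Rims1 circle to 2473 nt in Shank3.

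The cortex table lists 19811 circRNAs, of which 10610 were found in the 6 samples and 886 in all 6. The smallest count above 0 is 2 reads. After keeping circRNAs found in at least 2 replicates of a cortex time point, 4790 remained, and the 6 samples held 14424 to 24992 circular reads of these per sample, which sets the precision of every value below. Among the 18 cortex samples, 1 library stood apart, ZT9 replicate 3, with 6555 circular reads and a Cdr1as share of 2.18%. Its median correlation with the other libraries was 0.380, against 0.597 or more in the rest (Pearson, log2 of 1 plus reads scaled to total circular reads). This library belongs to neither group, but it entered the shared estimate of spread, and values without it are given beside the results it touches most. All pairs of samples differed beyond sampling noise, with a chi-square per degree of freedom of 1.62 to 2.60, so none was counted as a duplicate.
The tissue label could be checked only in part from circular reads. Normalized circular reads of the neuronal list summed to 16.8 ± 4.804 at ZT5 and 20.7 ± 6.19 at ZT17 (SD, n = 3 each), and those of excitatory frontal cortex neurons to 12.1 ± 9.21 and 14.2 ± 1.27. The summed levels of the astrocyte, oligodendrocyte and striatum lists stayed at or below 1.03 in both groups, and the oligodendrocyte precursor, microglia and endothelium lists were at 0. The inhibitory neuron list summed to 3.32 ± 2.88 and 1.63 ± 0.204, and the hippocampus list to 15.5 ± 4.38 and 11.4 ± 5.003. Defining genes such as Snap25, Map2, Gad1, Gfap, Mbp and Csf1r gave no circular read, so the part of cell composition in any result was not tested.

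More circular reads were found at ZT17 than at ZT5. The kept circRNAs drew 17255, 14424 and 14673 circular reads in the 3 ZT5 samples and 20271, 24992 and 19074 in the 3 ZT17 samples. The groups did not overlap, and the mean was 38.8% higher at ZT17 (15451 ± 1568 against 21446 ± 3129, SD, n = 3 each), with p = 0.1 in a two-sided exact permutation test, the smallest p that 3 against 3 samples allow. These totals are not scaled to the number of reads sequenced, which was not used here. A difference in circRNA content and a difference in sequencing depth therefore cannot be told apart from them. The study, which scaled circular reads to all reads of a library, reported higher circRNA expression in the cortex in the wake phase, and a fall shortly before lights on. It ascribed this course to changes of the linear host transcripts, which were not used here.
The number of different circRNAs followed the totals. At ZT5, 3458, 3168 and 3006 circRNAs were found, and at ZT17 3906, 4684 and 3772, which is 28.3% more on average and again without overlap (exact permutation p = 0.1). When every sample was thinned at random to 16647 reads, the smallest total of the 6 over all listed circRNAs, and a circRNA was again counted only from 2 reads on, the order turned. The mean was then 3038 ± 97.5 at ZT5 and 2954 ± 61.7 at ZT17, the groups overlapped, and the exact permutation test gave p = 0.4. Cdr1as took more of the ZT5 reads, and with it left out before thinning the ZT17 samples held 5.58% fewer circRNAs than the ZT5 samples, without overlap (exact permutation p = 0.1). At equal totals of circular reads the ZT17 means were thus not above the ZT5 means, and sequencing depth itself was not matched.

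**Figure D1:**
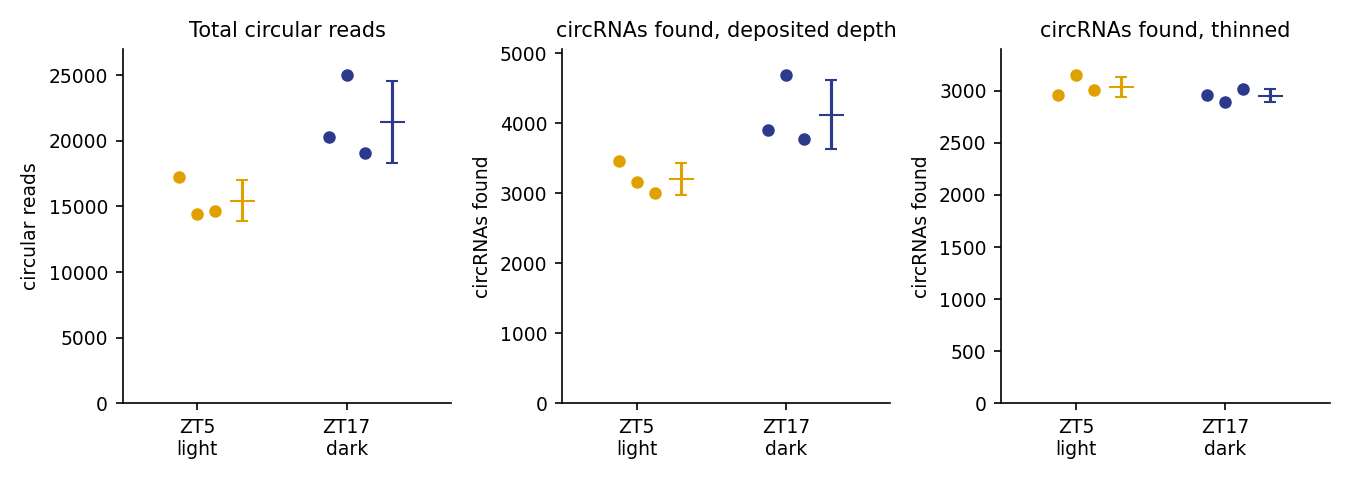
Circular reads of the kept circRNAs, number of circRNAs found at the deposited depth, and number found after thinning each sample to 16647 reads, in the 3 ZT5 (yellow) and 3 ZT17 (blue) samples of the frontal cortex. Points are samples, bars are mean and SD, and the vertical axes start at 0. The ZT17 samples lie above the ZT5 samples in the first and second panels, and the groups overlap in the third.

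Circles seen in all 3 samples of a time point and in none of the other were mostly those of ZT17 at the deposited depth. There were 124 such circRNAs for ZT17 and 15 for ZT5, and 55 and 3 among those with at least 10 reads over the 6 samples. After thinning, the means over 20 draws were 51.2 and 29.6, at equal totals of circular reads. The 5 most read ones for ZT17 included circles of Unc79, a subunit of the sodium leak channel complex, with 8, 6 and 10 reads, of Fndc3a with 8, 8 and 3 reads, and of the zinc finger gene Zfp532 with 7, 8 and 4 reads. A circle of Kcnh5, a voltage-gated potassium channel, had 5, 8 and 4 reads, and a circle on chromosome 19 without a host gene 8, 7 and 4. Among those of ZT5 were circles of the ubiquitin-conjugating enzyme Ube2g1 with 5, 2 and 4 reads, of the histone deacetylase Hdac9 with 3, 2 and 6 reads, of the glycerol kinase gene Gk with 4, 2 and 4 reads, and of Nbeal1 with 4, 3 and 2 reads. A circle of Rbfox3, the neuronal splicing factor NeuN, had 3, 4 and 2. These counts sit just above the detection limit of 2 reads. The Unc79 circle was also found in 8, the Fndc3a circle in 9, and the Zfp532 and Kcnh5 circles in 10 of the 12 cortex samples of the other time points, and the chromosome 19 circle in 4. Of the ZT5 circles, that of Ube2g1 was found in 6, Hdac9 in 4, Gk and Rbfox3 in 2 and Nbeal1 in 1 of the 12.

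Cdr1as made up a smaller share of the circular reads at ZT17. Its share was 10.1%, 7.78% and 12.5% in the ZT5 samples and 5.90%, 7.47% and 6.17% in the ZT17 samples. No ZT17 sample reached the lowest ZT5 sample, although the nearest were 7.47% (95% Wilson interval 7.15 to 7.80%) and 7.78% (7.35 to 8.23%). The intervals cover counting error only. The mean was 10.1 ± 2.38% at ZT5 and 6.51 ± 0.84% at ZT17 (SD, n = 3 each, exact permutation p = 0.1, the smallest possible). Of the other 15 cortex samples, 14 lay above the highest ZT17 value, the exception being the ZT9 library that stood apart. The study, which did not use this share, reported no significant change of Cdr1as in the frontal cortex across the light-dark cycle.
The reads themselves, 1747, 1122 and 1840 at ZT5 and 1196, 1866 and 1177 at ZT17, overlapped, while the circular reads of all other kept circRNAs were 44.3% higher at ZT17. In reads scaled with edgeR's TMM factors (normalized reads), Cdr1as stood at 1785, 1299 and 2230 at ZT5 and at 996, 1320 and 1070 at ZT17. The ranges touched, since ZT5 replicate 2 lay just below ZT17 replicate 2. The log2 fold change, ZT17 against ZT5, was -0.65 (SE 0.39, 95% interval -1.42 to 0.12), with an unadjusted p of 0.112 and an adjusted p of 1 in edgeR's quasi-likelihood test, adjusted by Benjamini-Hochberg over 518 circRNAs. Without scaling the value was -0.15, and leaving out a replicate moved it from -0.79 (without ZT5 replicate 2) to -0.41 (without ZT5 replicate 3). Without the ZT9 library that stood apart, the log2 fold change was -0.61 (SE 0.15) and the adjusted p 0.101 in the same edgeR test, and in a fit of only the 6 samples it was -0.62 (SE 0.20, adjusted p 0.413). That library held the lowest Cdr1as share of the 18 cortex samples and was left out after seeing the data. Its removal is thus not independent of the value tested.
The microRNA sites of Cdr1as are shown by the mature miR-7a-5p, from RefSeq (GRCm38.p6), with its seed (bases 2 to 8) in capitals.
mmu-miR-7a-5p: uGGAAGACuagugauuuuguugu
The letters that pair with this seed, GTCTTCC, occur 123 times in the spliced sequence of Cdr1as, read in its own strand and around the junction. Of the 463 tested circles with known exons, 24 (5.18%) hold them at least once, and no circle other than Cdr1as holds them more than 2 times. The 24 circles had a median log2 fold change of 0.02 with 13 above and 11 below 0, against a median of -0.01 in the 439 without. The letters GGCTTCC, which pair with the seed of miR-671-5p, a microRNA that directs the cleavage of Cdr1as, occur 1 time in Cdr1as and in 36 of the 463 circles (7.78%), with a median of -0.11 against -0.00 in the 427 without. In the hippocampus of the same series, Cdr1as had 1050, 1562 and 1354 reads at ZT5 and 1264, 1374 and 1259 at ZT17, with a log2 fold change of -0.04 (SE 0.34). The difference between the tissues was -0.58 (SE 0.48, unadjusted p 0.243 in edgeR's interaction test), so a difference between them was not shown.

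**Figure D2:**
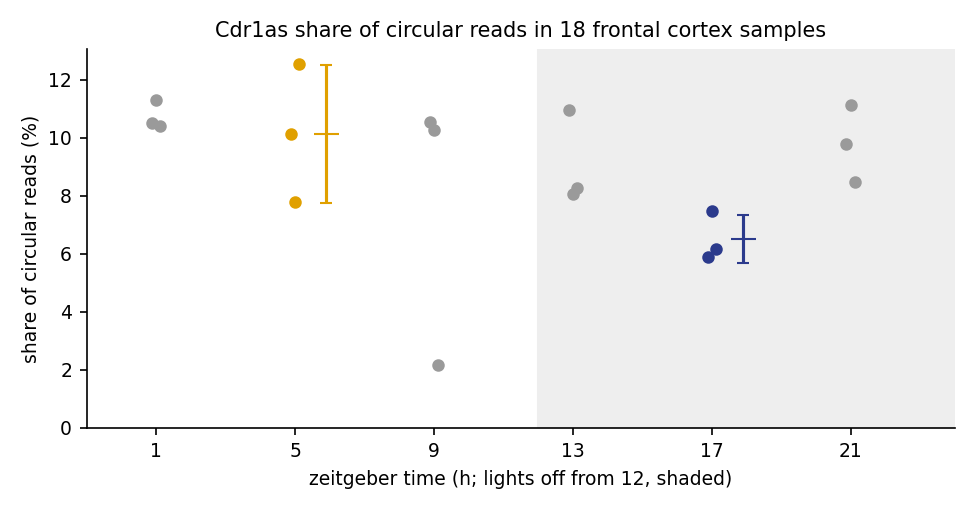
Share of Cdr1as in the circular reads of each frontal cortex sample (vertical axis, percent, from 0) by zeitgeber time (horizontal axis, hours), with ZT5 in yellow, ZT17 in blue and the other time points in grey. Points are samples and bars the mean and SD of ZT5 and ZT17; the 3 ZT17 samples, at 5.90 to 7.47%, lie below all others but the ZT9 library at 2.18%.

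No single circRNA passed the test. Of 518 circRNAs with enough reads, 0 had an adjusted p under 0.05 in edgeR's quasi-likelihood test (0% called), and the smallest adjusted p was 0.172. Unadjusted, 20 had a p under 0.05, 7 of them higher at ZT17 (1.35% of those tested) and 13 lower (2.51%). Without the ZT9 library that stood apart, 29 of 599 did, 11 of them higher, and the 20 were all among them. DESeq2 run on the same counts called 1, the Gm26917 junction, which rests on 1 library. Normalized reads did not overlap between the groups in 29 circRNAs that were higher (5.6%) and 35 that were lower at ZT17 (6.76%). Log2 fold changes centred at -0.01, with 246 above and 269 below 0 and quartiles at -0.32 and 0.23, and 3 circRNAs had no read in the 6 samples. Each SE was derived from the log2 fold change and its p-value in edgeR's test, and can be unstable where the change is near 0. The 95% intervals took a normal rather than a t quantile of it, so they are slightly narrow. The median SE of 0.48 is thus only a rough guide to what could be seen at this depth. In 157 of the 518 (30.3%) the 95% interval so formed stayed within a log2 change of 1 in either direction.
The abundant circles were nearly level. After Cdr1as, the 9 most read circles came from Gigyf2, Tulp4, Dtnb, Slc8a1, Fat3, Ankib1, Atxn1, Ssbp2 and Kat6b, and none had a log2 fold change over 0.30 in size. The Gigyf2 circle of exons 4 to 8 had 156, 171 and 196 normalized reads at ZT5 and 166, 178 and 203 at ZT17, a log2 fold change of 0.06 (SE 0.21, 95% interval -0.35 to 0.47). The single-exon circle of Slc8a1, the sodium-calcium exchanger of the plasma membrane, had 98.1, 91.5 and 99.4 against 98.3, 108 and 103 (0.10, SE 0.27, -0.43 to 0.63). The samples of the groups overlapped for all 9. For Dtnb, which encodes a dystrobrevin, the difference was the largest of them, from 108 ± 11.2 to 133 ± 19.0 (SD, n = 3 each, log2 fold change 0.30, SE 0.24). Circles of Fat3, an atypical cadherin, and Tulp4 lay at 0.00 (SE 0.23) and 0.01 (SE 0.21).

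**Figure D3:**
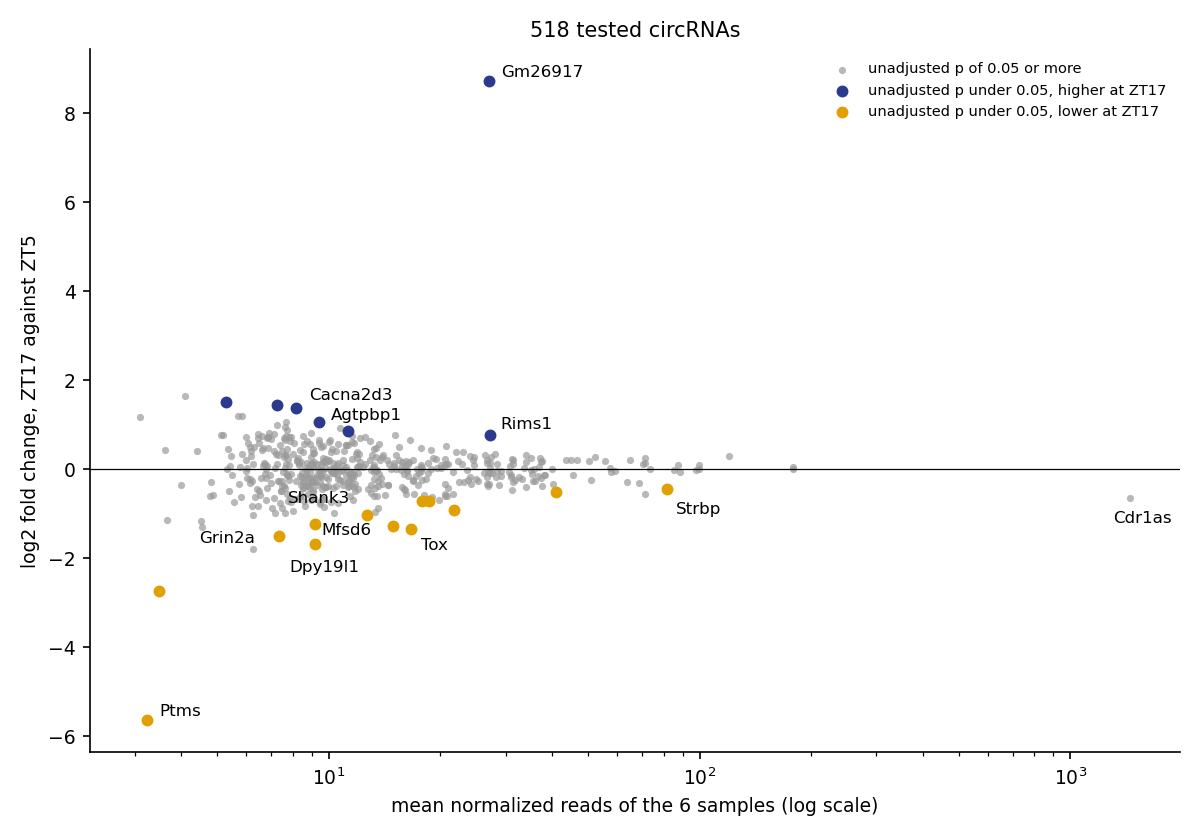
Log2 fold change of each of the 518 tested circRNAs, ZT17 against ZT5 (vertical axis), by its mean normalized reads in the 6 samples (horizontal axis, log scale). Blue and yellow points have an unadjusted p under 0.05 and were higher or lower at ZT17, grey points have a larger one, and the abundant circles to the right lie near 0 except for Cdr1as at -0.65. The 3 circRNAs without a read are not drawn.

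The smallest p belonged to the Tox circle. Tox is a transcription factor of the high mobility group box family. Its circle of exons 2 and 3 had 25, 20 and 19 reads at ZT5 and 13, 13 and 9 reads at ZT17, although the ZT17 libraries were larger. Normalized, this was 25.5, 23.2 and 23.0 against 10.8, 9.19 and 8.18, so that every ZT17 sample lay far below every ZT5 sample. The log2 fold change was -1.34 (SE 0.32, 95% interval -1.96 to -0.71), with an unadjusted p of 0.000332 and an adjusted p of 0.172 in edgeR's quasi-likelihood test. At the other cortex time points its mean was 13.5 at ZT1, 21.2 at ZT9, 15.2 at ZT13 and 17.7 at ZT21, so ZT5 held the highest and ZT17 the lowest mean of the day. In the hippocampus the same circle had 7, 12 and 13 reads at ZT5 and 4, 7 and 10 at ZT17 (log2 fold change -0.59, SE 0.49).
The circle of Mfsd6 exon 2 came next. Mfsd6 belongs to the major facilitator family of membrane transporters. Its circle had 27.6, 19.7 and 15.8 normalized reads at ZT5 and 6.66, 7.78 and 11.8 at ZT17, without overlap. The log2 fold change was -1.28 (SE 0.36, adjusted p 0.451, edgeR's quasi-likelihood test), and the means of the day again ran from a high at ZT5 over 18.3 at ZT9, 11.95 at ZT13 and a low at ZT17 to 16.8 at ZT21 and 14.9 at ZT1. In the hippocampus the circle went the other way in value, from 21, 12 and 13 reads to 18, 20 and 23, and the difference between the tissues was -1.62 (SE 0.55), with an unadjusted p of 0.00596 and an adjusted p of 1 in the edgeR interaction test. Since the circles named here were taken for their difference between ZT5 and ZT17, their extremes at these times of day are partly set by that choice.

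Circles of the postsynaptic side were among the lower ones. Shank3 is a master scaffold of the postsynaptic density. Its circle of exons 19 to 21 had 11.2, 17.4 and 23.0 normalized reads at ZT5 and 8.33, 9.90 and 6.37 at ZT17, with no overlap and a log2 fold change of -1.03 (SE 0.38, unadjusted p 0.0129). Grin2a encodes the GluN2A subunit of the NMDA-type glutamate receptor. Its single-exon circle had 11.2, 6.95 and 14.5 against 3.33, 4.24 and 3.64, which is a log2 fold change of -1.50 (SE 0.62, unadjusted p 0.0229). Both had an adjusted p of 1 in edgeR's quasi-likelihood test.
The other circles of these groups did not share the direction. Among 12 tested circles of the postsynaptic scaffold list, 5 were above and 7 below 0 with a median log2 fold change of -0.07, 1 of them non-overlapping and lower (6.76% of all 518 were), and the Homer1 circle of exons 2 to 5, a scaffold that binds metabotropic glutamate receptors, lay at 0.07 (SE 0.46), with 27.6, 28.9 and 33.9 against 29.2, 38.9 and 26.4 normalized reads. Among the 4 tested circles of glutamate receptor genes, 2 were above and 2 below 0, and the Grin2b circle had 12.5 ± 2.44 at ZT5 and 15.5 ± 1.41 at ZT17 (log2 fold change 0.33, SE 0.33). For the synaptic adhesion list, 4 circles were above and 7 below 0, with a median of -0.20.

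More presynaptic circles had values above 0 than below. The list of the active zone and vesicle release had 14 tested circles, 10 above and 4 below 0, with a median log2 fold change of 0.19, and 4 non-overlapping and higher against none lower. Beside it, all 518 circRNAs had a median of -0.01, with 5.6% non-overlapping and higher and 6.76% lower. None of the 14 had an adjusted p under 0.05 in edgeR's quasi-likelihood test, and all 14 come from 7 genes, so that they are not independent. The 2 Rims1 circles shown above, which share exons 30 and 31, are among the 4. The summed normalized reads of the list, 460 ± 28.6 at ZT5 and 492 ± 30.5 at ZT17 over all 97 kept circles, overlapped.
Rims1, which organises calcium channels and primed vesicles at the active zone, gave the leading member. The circle of exons 30 and 31 had 21, 18 and 15 reads at ZT5 and 37, 52 and 39 reads at ZT17. Normalized, this was 21.5, 20.8 and 18.2 against 30.8, 36.8 and 35.5, a log2 fold change of 0.76 (SE 0.30, 95% interval 0.17 to 1.36, unadjusted p 0.0191, adjusted p 1 in edgeR's quasi-likelihood test). The second junction shown above, which joins exon 32 to the same exon 30, had 61.3, 61.4 and 57.0 against 64.1, 70.7 and 74.6, which is 0.22 (SE 0.21). Another circle, of exons 29 to 32, also lay higher without overlap, at 10.1 ± 1.55 and 15.8 ± 2.06 (SD, n = 3 each). Rims1 circles did not all share the direction. The second most read one, whose ends lie off exon boundaries, had 79.7, 57.9 and 71.5 at ZT5 and 62.5, 55.2 and 55.5 at ZT17 (log2 fold change -0.27, SE 0.44), and that of exons 6 to 9 had 19.6 ± 5.24 and 17.1 ± 5.37 (-0.22, SE 0.32).
The choice of the last exon can be read without scaling between libraries. Of the reads of the Rims1 circles that start at exon 30 and end at exon 31 or 32, the shorter one took 25.9%, 25.4% and 24.2% at ZT5 and 32.5%, 34.2% and 32.2% at ZT17. The groups did not overlap, but the Wilson intervals of the samples did, for example 15.2 to 36.2% and 24.6 to 41.0% in replicate 3, and the other 12 cortex samples ran from 16.1 to 35.5%. In the hippocampus the share was 29.5%, 21.95% and 28.0% at ZT5 and 43.7%, 25.3% and 26.1% at ZT17, with overlap. This pair and the next were taken after their values were seen, so no test is given.
Dpy19l1, a gene for a C-mannosyltransferase of the endoplasmic reticulum, gave the other pair, on the lower side. The circle of exons 2 to 7 had 10, 10 and 17 reads at ZT5 and 5, 8 and 3 at ZT17 (log2 fold change -1.69, SE 0.60, unadjusted p 0.00972), while the circle of exons 2 to 6 had 22 in each ZT5 sample and 21, 37 and 18. The longer circle took 31.2%, 31.2% and 43.6% of the reads of both at ZT5 and 19.2%, 17.8% and 14.3% at ZT17. The 12 other cortex samples spanned 0 to 100%, with a median of 27.6%. The extremes were 0 of 17 reads in ZT13 replicate 3 and 7 of 7 in the ZT9 library that stood apart.

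Circles of calcium signalling and ion channel genes also had medians above 0. Cacna2d3 encodes an auxiliary subunit of voltage-gated calcium channels. Its circle of exons 21 to 24 had 5, 3 and 4 reads at ZT5 and 18, 15 and 11 at ZT17, or 5.11, 3.47 and 4.85 against 14.99, 10.61 and 10.003 normalized reads. No sample overlapped, and the log2 fold change was 1.38 (SE 0.51, 95% interval 0.38 to 2.38, unadjusted p 0.0128). In the hippocampus the circle had 10, 13 and 7 reads at ZT5 and 9, 6 and 6 at ZT17, and the difference between the tissues was 1.95 (SE 0.73, unadjusted p 0.0115, adjusted p 1 in edgeR's interaction test).
The ion channel list had 11 tested circles, 7 above and 4 below 0, with a median of 0.17 and 2 non-overlapping and higher (5.6% of all 518 were), namely Cacna2d3 and Kcnk2, a potassium leak channel chosen for mention after its values were seen. Summed over its 81 kept circles, it went from 280 ± 3.34 to 291 ± 4.88 normalized reads (SD, n = 3 each), 3.96% more and without overlap. All kept circRNAs other than Cdr1as, summed on the same scale, also lay higher at ZT17 without overlap, so this rise is not particular to the list. The sums of the GABA, presynaptic, glutamate receptor, activity-regulated and well-studied lists rose more, by 10.3%, 6.79%, 6.39%, 5.53% and 5.12%, with overlap. The calcium and cAMP signalling list had 7 tested circles, 5 above and 2 below 0, with a median of 0.10. Its 57 kept circles summed to 262 ± 11.2 at ZT5 and 306 ± 8.79 at ZT17, 16.5% more and without overlap, and the circle of protein kinase C epsilon (Prkce) had 22.5, 28.9 and 23.0 against 30.8, 29.7 and 29.1 (log2 fold change 0.27, SE 0.30). These were 2 of 13 host gene lists, and the sums of the other 11 overlapped.

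**Figure D4:**
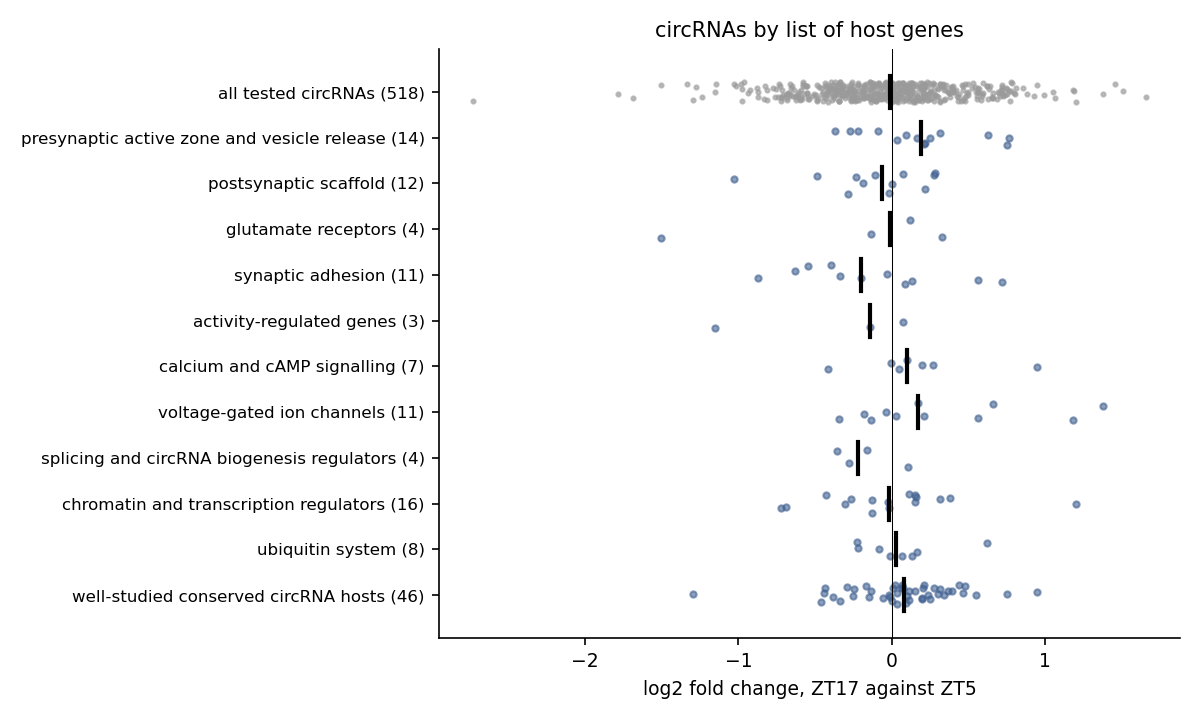
Log2 fold change, ZT17 against ZT5 (horizontal axis), of the tested circRNAs of each host gene list with at least 3 of them, with all tested circRNAs at the top and the number in brackets. Points are circRNAs and black bars medians, which run from -0.22 for splicing regulators to 0.19 for the presynaptic list; the 2 circRNAs beyond 4 in size, Gm26917 and Ptms, are not drawn.

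Genes of the clock and genes that respond to activity gave few circles. Of 37 clock gene symbols, 7 had a kept circle and 24 no circular read in the 6 samples, among them Per1, Per2, Nr1d1 and Arntl. The circle of Ncoa2, a nuclear receptor coactivator, had 38.8, 44.0 and 36.4 normalized reads at ZT5 and 38.3, 43.9 and 38.2 at ZT17 (log2 fold change 0.02, SE 0.28, 95% interval -0.53 to 0.57). That of Npas2, a partner of BMAL1, had 11.0 ± 4.14 and 10.7 ± 3.60 (SD, n = 3 each). Its log2 fold change of -0.00 came with an interval of -1.12 to 1.11, so a moderate change could not be seen. Of 31 activity-regulated genes, 9 had a kept circle, 21 were at 0, including Fos, Arc, Npas4 and Bdnf, and 3 circles were tested, 1 above and 2 below 0.
Regulators of transcription and of RNA showed no common direction. Chromatin and transcription regulators had 16 tested circles, 7 above and 9 below 0, with a median of -0.02 and 3 non-overlapping and lower (6.76% of all 518 were). The Arid1a circle of exons 2 to 4, from a subunit of the BAF remodelling complex, was among the latter, with 25, 16 and 21 reads at ZT5 and 12, 20 and 20 at ZT17 (log2 fold change -0.72, SE 0.34, unadjusted p 0.0465). The single-exon circle of Tcf20 had 75.9 ± 5.70 and 61.4 ± 1.65 (-0.30, SE 0.29), and the circle of Hivep2 exons 2 to 3 had 19.0 ± 3.73 and 24.98 ± 6.47 (0.38, SE 0.35). Splicing regulators had 4 tested circles, 1 above and 3 below 0, with a median of -0.22, and the Elavl3 circle lay at -0.16 (SE 0.33). The ubiquitin list had 4 above and 4 below 0, with a median of 0.03 and the Rnf169 circle at -0.23 (SE 0.28). The 1 tested circle of a GABA receptor gene, Gabra4, lay at -0.33 (SE 0.59). Hosts of well-studied conserved circRNAs had 46 tested circles, 31 above and 15 below 0, with a median of 0.08.

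Further circles of the smallest p-values came from genes of varied function. Agtpbp1, a deglutamylase of tubulin, gave a circle of exons 2 to 11 with 4.09, 5.79 and 8.49 normalized reads at ZT5 and 9.16, 13.4 and 15.5 at ZT17 (log2 fold change 1.05, SE 0.43, unadjusted p 0.022). Kansl1, a subunit of a histone acetyltransferase complex, had 7.98 ± 1.79 and 14.5 ± 3.54 (0.86, SE 0.41), and the noncoding Rab10os 0, 4 and 3 reads against 10, 11 and 8 (1.51, SE 0.71). The Dock3 circle, from an exchange factor for Rac, overlapped between the groups, at 3.85 ± 4.30 and 10.6 ± 2.73 (1.46, SE 0.61). The last 3 of the 10 highest had an unadjusted p over 0.05, namely Kmt2a, a histone methyltransferase (1.20, SE 0.63), Wdr7 (0.75, SE 0.40) and Nlrp5-ps (0.78, SE 0.42), and the groups overlapped for Kmt2a and Nlrp5-ps. On the lower side stood Rap1gap2, a GTPase activator of Rap1 (12.96 ± 4.61 and 5.39 ± 1.12, log2 fold change -1.24, SE 0.51), and the cation channel gene Trpc6 (28.6 ± 8.88 and 14.8 ± 7.89, -0.92, SE 0.40), whose groups overlapped.
The Strbp circle, from a spermatid and brain RNA-binding protein, went from 94.3 ± 12.4 to 69.3 ± 4.58 (-0.45, SE 0.20). Of the 20 circles with an unadjusted p under 0.05, 5 were non-overlapping and higher, 9 non-overlapping and lower, and 6 overlapped. The choice by p favours such separation, and over all 518 circRNAs 5.6% were non-overlapping and higher and 6.76% lower. Among the 6 that overlapped, the 8.72 of the Gm26917 junction came from 178 reads in ZT17 replicate 3 and 0 in the other 5 samples. The -5.64 of the Ptms junction came from 16 reads in ZT5 replicate 3 alone. Both junctions lie off annotated exon boundaries, and without the library that holds the reads neither has a read in the other 5.

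**Figure D5:**
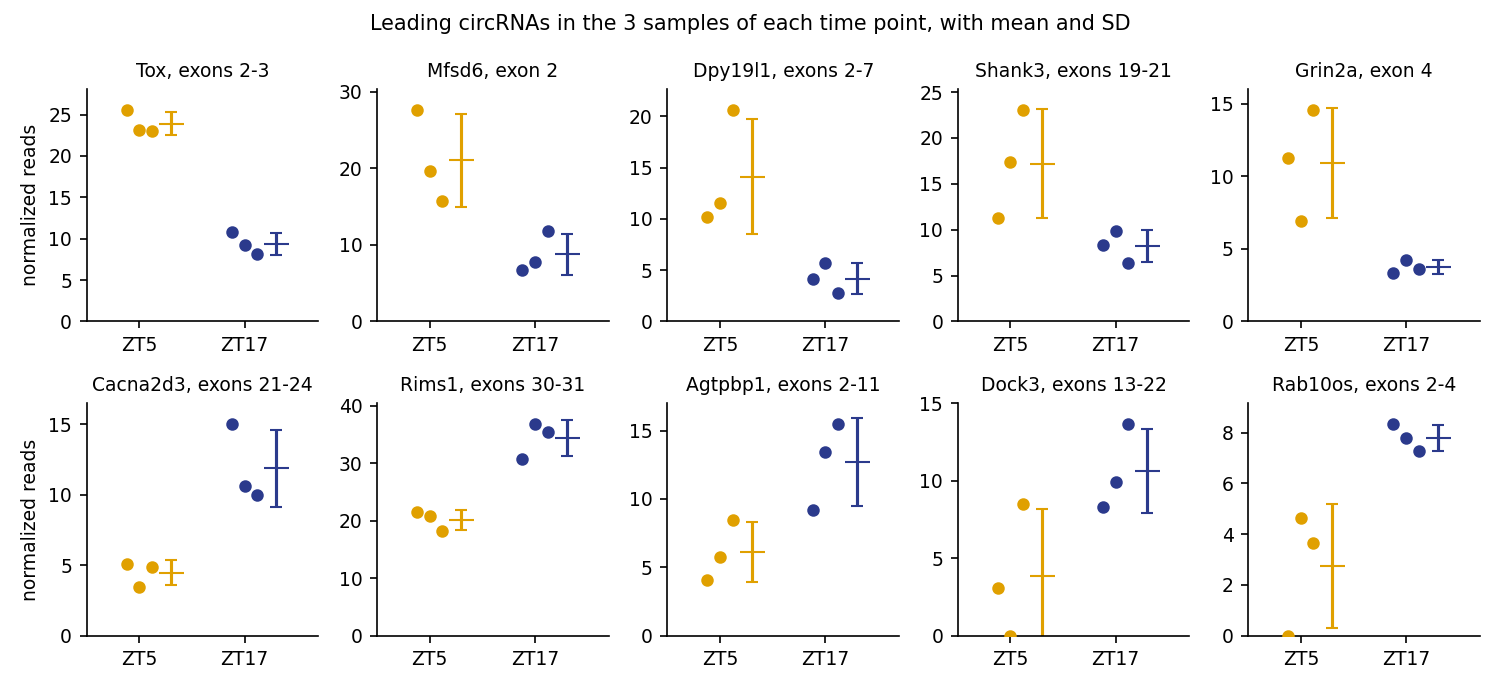
Normalized reads (vertical axes, from 0) of the 5 circRNAs with the smallest unadjusted p that were lower (top row) and the 5 that were higher at ZT17 (bottom row), among those with known exons. Points are the 3 ZT5 (yellow) and 3 ZT17 (blue) samples and bars mean and SD. The samples separate in all panels but that of Dock3, and the choice by p favours such separation.

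Summing all circles of a gene gave the same picture. Of 560 host genes, 0 had an adjusted p under 0.05 in edgeR's quasi-likelihood test (0% called), with a smallest adjusted p of 0.227, and DESeq2 called 0 as well. Unadjusted, 14 were higher (2.5%) and 12 lower (2.14%) at a p under 0.05. Pank1, a pantothenate kinase of coenzyme A synthesis, had 2, 0 and 0 circular reads at ZT5 and 12, 19 and 9 at ZT17 over 4 circles (log2 fold change 3.61, SE 1.05, unadjusted p 0.00192), none of which had enough reads to be tested alone. Tenm3, a teneurin of synaptic adhesion, went from 5.58 ± 0.57 to 12.5 ± 1.53 (1.14, SE 0.44). The ubiquitin ligase Rnf13 had 0, 2 and 5 reads against 9, 28 and 8 (2.06, SE 0.83). On the lower side, Tox and Mfsd6 each have a single kept circle. Snhg14, the long antisense transcript to Ube3a, was spread over 52 circles and went from 67, 28 and 76 reads to 33, 58 and 33 (log2 fold change -0.99, SE 0.34), with ZT5 replicate 2 low.
The gene that holds Cdr1as in the annotation, C230004F18Rik, had a log2 fold change of -0.68 (SE 0.33) and an adjusted p of 0.997 in the same edgeR test. Without the ZT9 library that stood apart, the log2 fold change was -0.65 and the adjusted p 0.00574, the only call of 618 host genes. That library was left out after seeing the data. It held the lowest Cdr1as share of the 18 cortex samples, so this call is tied to the value tested. In a fit of only the 6 samples the log2 fold change was -0.66, with an adjusted p of 0.0956.

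Shares and medians differed slightly by the structure and length of the circles. Single-exon circles took 18.2 ± 2.37% of the circular reads at ZT5 and 14.4 ± 0.69% at ZT17, and circles of several exons 70.4 ± 2.21% and 74.8 ± 0.87% (SD, n = 3 each). Neither pair of groups overlapped (exact permutation p = 0.1 each, 0.2 after Benjamini-Hochberg adjustment over 4 shares). Without Cdr1as, itself a single exon, the first became 8.99 ± 0.25% and 8.47 ± 0.15%, still without overlap, and the difference for circles of several exons went from 4.39 to 1.65 points, also without overlap. Circles within a gene but off its exon boundaries took 9.61 ± 0.33% and 9.08 ± 0.52% (exact p = 0.3). Without Cdr1as these were 10.7 ± 0.13% and 9.71 ± 0.53%, and over all listed circRNAs 11.5 ± 0.34% and 10.4 ± 0.60%, both without overlap (exact p = 0.1 each). Circles without a host gene on the same strand took 1.72 ± 0.62% and 1.65 ± 0.37% (exact p = 0.9).
Single tested circles leaned the same way. Of 44 single-exon circles 14 were above and 30 below 0 (median log2 fold change -0.14), against 213 and 206 of 419 circles of several exons (median 0.00). When the 463 circles with known exons were split by spliced length into 4 groups, the shortest, 60 to 393 nt, had 68 above and 48 below 0 with a median of 0.11, and the longest, 837 to 5866 nt, had 45 and 71 with a median of -0.13. The groups between them lay at -0.02 and -0.00. Quartiles ran from -0.19 to 0.35 in the shortest and from -0.41 to 0.11 in the longest group, with overlap, and these splits were not tested. Split in the same way by GC content, the lowest group, up to 44.1%, had a median of -0.09 and the other 3 lay between -0.00 and 0.03.

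The hippocampus was compared in the same fit as the cortex. Over 36 samples, 0 of 710 circRNAs differed between the tissues in their ZT17 against ZT5 change at an adjusted p under 0.05 (0% called), and 17 did at an unadjusted p under 0.05 (2.39%). DESeq2 called 0. Both regions may come from the same mice, which the labels do not give, and the fits held no term for the animal. Across these 710 circRNAs the log2 fold changes of the tissues had a Pearson r of 0.09 and a Spearman rho of 0.00, as a description, since circRNAs of a library share its depth. Of the leading circles, Tox had the same sign in both tissues, as did Dpy19l1 (-0.28, SE 0.88), Shank3 (-0.28, SE 0.39) and Rap1gap2 (-1.16, SE 0.71), and on the higher side Agtpbp1 (0.17, SE 0.44) and Rims1 (0.27, SE 0.32). Mfsd6, Grin2a, Trpc6 and Cacna2d3 had the opposite sign, at 0.37 (SE 0.38), 0.02 (SE 0.52), 0.22 (SE 0.30) and -0.54 (SE 0.50). All these hippocampal values lay within 2 SE of 0.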

How the data were processed

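Circular reads were measured in 36 samples of 2 mouse brain regions, and the 18 of the frontal cortex entered the fits. Per the labels and the study's methods, reads were aligned with BWA to GRCm38 and circRNAs called with CIRI2, and the authors deposited the counts of reads across each back-splice junction. A further 1 per-sample column matched no sample and was not used. CircRNAs found in at least 2 replicates of a cortex time point were kept, filtered with filterByExpr, scaled by TMM and tested with edgeR's quasi-likelihood test (edgeR 4.0.16, R 4.3.3) over 18 samples at 6 time points, contrast ZT17 minus ZT5, with Benjamini-Hochberg adjustment and a threshold of 0.05. The same test was run on sums per host gene and, over 36 samples, on the difference between the tissues. The test was first run on simulated counts with the same fixed spread for all circRNAs, in which no library stands apart in composition, unlike in these data. The SE of a log2 fold change was derived from that change and its p-value, and the 95% interval took a normal quantile of it. Normalized reads are scaled to the mean effective library size of the 18 samples. The host is the GENCODE M21 (GRCm38) gene on the same strand that holds both ends. For shares and totals an exact permutation test (two-sided) was used, whose smallest p for 3 against 3 is 0.1. Thinning drew 20 random subsets of 16647 reads and required 2 reads. Kept circular reads numbered 14424 to 24992 in the 6 samples. A floor for shares was set at 3 reads, 0.0120 to 0.0208% of a sample, while the smallest count is 2 reads. The same-strand GENCODE transcripts gave the junctions and RefSeq the microRNAs.

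Named were Cdr1as, the 10 most read circles, the 10 smallest p in each direction, calls of any alternative, up to 3 most read circles per gene list, the 5 smallest host p in each direction and up to 5 circles found at only 1 of the times; values of some of these are given only as counts or are not reported here. The members and lists were chosen with earlier results of these data known. Alternatives were DESeq2 1.42.0, other scalings, no filter, fewer samples, a replicate block and leaving out each replicate. The other steps used Python 3.11.15 (matplotlib 3.10.9, pandas 2.3.3, scipy 1.17.1, numpy 2.4.6).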

Additional observations from a re-analysis of the deposited data

How the results depend on the processing

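The count of 0 called circRNAs became 3 with no filter on low counts (Gm26917, Cdr1as and Ptms) and 1 with DESeq2 (Gm26917), and was 0 under the other alternatives run. Unadjusted p-values under 0.05 numbered 10 to 20 when a replicate was left out, the 10 without ZT17 replicate 3, and 148 with no filter. Without scaling, the median log2 fold change was 0.45 and 21 of 22 such circRNAs were higher at ZT17, against 7 of 20 in the reported fit, and scaling to total reads gave a median of 0.09. For host genes, 2 were called with no filter and 1 without the ZT9 library that stood apart, an alternative chosen after seeing the data. For the difference between tissues, 4 were called with no filter. Cdr1as lay at -0.55 and was called with no filter (adjusted p 0.0012), at -0.15 without scaling, and at -0.79 to -0.41 when a replicate was left out. Thinning turned the difference in circRNAs found to -2.78%, and to -5.58% without Cdr1as (added after seeing the data). The circRNAs found at ZT17 alone became 51.2, 46.0 without Cdr1as and 55 with at least 10 reads, and those at ZT5 alone 29.6, 29.2 and 3.
Of the named circles, those near 0 changed sign. With no filter, without scaling, under total scaling, DESeq2's size factors, DESeq2, circRNAs found at ZT5 or ZT17, and without the ZT9 library, in this order, Ankib1 lay at 0.082, 0.47, 0.098, 0.012, 0.012, 0.034 and 0.022, Kat6b at 0.082, 0.46, 0.091, 0.0041, 0.0045, 0.027 and 0.019, and Npas2 at 0.094, 0.49, 0.11, 0.024, 0.012, 0.048 and 0.039. In the fit of only the 6 samples Ankib1 lay at 0.019 and Kat6b at 0.010. Atxn1 lay at 0.046 under total scaling, 0.42 without scaling and 0.036 with no filter. Without scaling alone, Strbp turned to 0.028, the Rims1 circle off exon boundaries to 0.19, Elavl3 to 0.33, Tcf20 to 0.17 and Rnf169 to 0.24. Leaving out a replicate moved Ankib1 from -0.11 to 0.21, Atxn1 from -0.077 to 0.018, Kat6b from -0.037 to 0.098, Npas2 from -0.30 to 0.36, Ncoa2 from -0.032 to 0.13, Elavl3 from -0.41 to 0.037, Ssbp2 from -0.0064 to 0.32, Homer1 from -0.089 to 0.26, and the share without a host gene from -0.304 to 0.280 points. The causes were not tested.
The replicate numbers did not pair the samples (correlations of deviations -0.01, -0.29 and -0.16). With the replicate block, 0 circRNAs were called and 15 had an unadjusted p under 0.05, all of them among the 20, and 0 host genes and 0 differences between tissues were called, with 21 and 18 under 0.05. Naming hosts from the deposited table was not run, since that table names no genes. Depth limits the circles of few reads: the median SE, derived from the p-values, was 0.48.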
